A study of Mus musculus with 2 samples.

Results

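Hybrid Myh4 and Myh1 nuclei were barcodes, each standing for a nucleus, that held transcripts of both fast myosin heavy chain genes. In plantaris 161 of 227 and in gastrocnemius 25 of 26 of them lay in clusters with myonuclear markers. They were chosen by 3 conditions on unique molecular identifiers (UMIs, each standing for 1 captured transcript molecule): 10 or more UMIs summed over Myh1, Myh2, Myh4 and Myh7, at least 20% of that sum from Myh4 and at least 20% from Myh1, and under 20% from Myh2. The rule found 253 of 16530 nuclei, 227 in plantaris and 26 in gastrocnemius. Nuclei with 80% or more of their Myh UMIs from 1 gene served as the pure classes: 3224 pure Myh4 and 406 pure Myh1 nuclei in plantaris, 3385 pure Myh4 and 75 pure Myh1 nuclei in gastrocnemius. Because the Myh UMIs chose the classes, the Myh values below describe them and support nothing else.

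The study sequenced RNA of single nuclei from plantaris and gastrocnemius, a pair of calf muscles, of wild-type C57BL/6 mice aged 12 weeks. Minced and homogenised muscle gave nuclei that were stained with propidium iodide (a DNA dye), sorted, and captured with the 10x Chromium 3' chemistry. Each muscle gave 1 library, and the sources used here do not give the number or sex of the mice. Plantaris held 9156 nuclei and 29248275 UMIs with a median of 2714 UMIs per nucleus, and gastrocnemius 7374 nuclei and 19048595 UMIs with a median of 2260. Nuclei of 1 library are not replicates, so the differences below carry no test and no check against replicates. Intervals are at 95% and cover counting error only.

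Myh4, Myh1 and Myh2 encode the myosin motors of type 2B, 2X and 2A fibres, which run from fast and glycolytic to more oxidative in rodent muscle. Fibres that change type pass through neighbouring types, and fibres with a pair of adjacent myosins, called hybrid fibres, are well known in rodents. Myosin transcripts are made in the many nuclei along a fibre, so a nucleus reports on its own stretch of it.

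Both genes lie on the forward strand of chromosome 11 (mm10 positions, GENCODE M21), Myh1 at 67200052 to 67224575 and Myh4 at 67238029 to 67260446. The antisense transcript Myhas lies on the reverse strand from 67237573 down to 67211256. It runs through the gap between the genes and overlaps Myh1 from 67211256 to the end of that gene at 67224575. The 250 bases before the RefSeq start of each gene are shown because the class is defined by the output of these 2 starts. They are RefSeq sequence of build GRCm38.p6, forward strand, at chr11:67237562-67237811 for Myh4 and chr11:67199852-67200101 for Myh1. The GENCODE start of Myh4 lies downstream of the RefSeq one, and the start of Myhas lies inside the Myh4 window. Capitals mark matches on either strand to the TATA box TATAAA, the E-box CANNTG bound by myogenic factors, the MEF2 box and the CArG box.
Myh4: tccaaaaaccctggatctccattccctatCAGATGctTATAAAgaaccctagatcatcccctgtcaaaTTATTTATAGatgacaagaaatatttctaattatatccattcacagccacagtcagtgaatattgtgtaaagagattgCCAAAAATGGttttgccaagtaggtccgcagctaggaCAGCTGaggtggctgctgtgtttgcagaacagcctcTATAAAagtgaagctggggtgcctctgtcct
Myh1: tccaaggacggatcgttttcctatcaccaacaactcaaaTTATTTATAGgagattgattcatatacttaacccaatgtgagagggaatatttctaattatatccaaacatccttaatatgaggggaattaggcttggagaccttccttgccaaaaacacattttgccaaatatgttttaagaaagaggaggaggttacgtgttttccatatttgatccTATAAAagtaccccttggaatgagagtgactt
The MEF2 box stood once in each window, first base at -182 in Myh4 and -211 in Myh1, and in 1.69% of the 32851 promoter windows of this length. It overlaps a TATAAA match on the reverse strand. TATAAA matched 3 times in Myh4 and 2 times in Myh1, with the match nearest the start at -31 and -32, and was in 12.4% of all windows. The Myh4 window alone held E-boxes, at -221 and -67 (66.2% of all windows), and a CArG box, at -104 (1.47%). TGCTGAC, the core of the site bound by large Maf factors, was in neither window, and in 3.81% of all windows. A match describes letters only.

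Among nuclei with 10 or more Myh UMIs, 227 of 4437 in plantaris (5.12%, exact Clopper-Pearson interval 4.49 to 5.81%) and 26 of 3649 in gastrocnemius (0.713%, 0.466 to 1.04%) were hybrid. Set against the rarer parent class, there were 55.9 hybrids per 100 pure Myh1 nuclei in plantaris and 34.7 in gastrocnemius. The jump over a neighbour, from Myh4 to Myh2 with little Myh1, was cut the same way. It was rarer in plantaris, with 65 nuclei (1.46%), and about as common in gastrocnemius, with 24 (0.658%, 0.422 to 0.977%). These are 36.9 and 33.8 per 100 pure Myh2 nuclei. Relative to the rarer parent, hybrids were thus commoner than these mixed nuclei in plantaris and about as common in gastrocnemius. The other pair of neighbours, Myh1 and Myh2 with little Myh4, was somewhat commoner than the hybrids. It had 256 nuclei (5.77%, 5.10 to 6.50%) in plantaris and 29 (0.795%, 0.533 to 1.14%) in gastrocnemius, with intervals that overlap those of the hybrids.

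Within plantaris hybrids the Myh1 share was spread over the whole range that the rule allows. It was 20 to 40% in 60 nuclei, 40 to 60% in 83 and 60 to 80% in 84, and in gastrocnemius 6, 11 and 9 nuclei fell in the same bands. Just inside the cuts were 17 plantaris nuclei with a Myh1 share of 20 to 25% and 20 with a Myh4 share of 20 to 25%. Just outside were 20 with a Myh1 share of 15 to 20% and 29 with a Myh4 share of 15 to 20%. In gastrocnemius 1 and 2 nuclei lay just inside, and 5 and 7 just outside. In plantaris the cuts fell on a range with similar numbers on either side, and not in an empty gap.

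The level of myosin message as a whole was much the same in the 3 classes. Summed over the 4 Myh genes, plantaris hybrids held 3971 CPM (counts per 1000000 UMIs of the class), pure Myh4 nuclei 4059 and pure Myh1 nuclei 4474. In gastrocnemius the sums were 4661 CPM in hybrids, 4959 in pure Myh4 and 5814 in pure Myh1 nuclei. In plantaris hybrids Myh1 stood at 1974 CPM and Myh4 at 1941 CPM, against 3995 CPM of Myh4 in pure Myh4 nuclei and 4247 CPM of Myh1 in pure Myh1 nuclei. In gastrocnemius hybrids Myh1 stood at 2485 CPM and Myh4 at 2128 CPM, against 4923 CPM of Myh4 in pure Myh4 nuclei and 5448 CPM of Myh1 in pure Myh1 nuclei. Each gene's level in hybrids was well under that of its own pure class, which follows from the rule. Myhas, which the rule did not use, had 181 CPM in plantaris hybrids, 383 in pure Myh4 and 52.6 in pure Myh1 nuclei. Its gastrocnemius values were 202 CPM from 21 UMIs, 420 CPM and 45.2 CPM, so it lay between the pure classes in both muscles. The sources used here do not say whether the counting used strand, and Myhas overlaps Myh1. The Myh4 transcript shared 635 of its 5967 words of 50 bases with Myh1 transcripts (10.6%), and 34 of 451 (7.54%) in its last 500 bases, where 3' reads gather, so reads from the shared stretches could be assigned to neither gene or to the wrong one.

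Hybrids were somewhat richer in UMIs than pure nuclei in plantaris, yet far below the sum of a Myh4 and a Myh1 nucleus. The median was 4731 UMIs (interval 4291 to 5245) in plantaris hybrids, 3999 (3918 to 4073) in pure Myh4 and 3947 (3715 to 4137) in pure Myh1 nuclei. These are ratios of 1.18 and 1.20, and both pure medians together make 7946 UMIs. That sum was reached by 41 of 227 hybrids (18.1%, 13.3 to 23.7%), 174 pure Myh4 nuclei (5.40%, 4.64 to 6.23%) and 15 pure Myh1 nuclei (3.69%, 2.08 to 6.02%). An upper tail of hybrids thus reached totals of that size more often than either pure class did.

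In gastrocnemius the hybrid median was 3556 UMIs (2851 to 5292), against 3445 (3391 to 3515) in pure Myh4 and 3110 (2675 to 3480) in pure Myh1 nuclei, ratios of 1.03 and 1.14. Only 2 of 26 gastrocnemius hybrids (7.69%, 0.946 to 25.1%) reached the pure sum of 6555 UMIs, as did 133 pure Myh4 (3.93%) and 1 pure Myh1 nucleus (1.33%). The highest 10% of UMI totals of each library took in 33.0% of plantaris hybrids, 18.2% of pure Myh4 and 18.2% of pure Myh1 nuclei. In gastrocnemius it took in 34.6% of hybrids, 19.1% of pure Myh4 and 17.3% of pure Myh1 nuclei. Nuclei mixed in Myh4 and Myh2 had higher medians than hybrids in both libraries, 5416 UMIs in plantaris and 4962 in gastrocnemius. Nuclei mixed in Myh1 and Myh2 had lower medians than hybrids, 3551.5 UMIs in plantaris and 3419 in gastrocnemius.

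**Figure D1:**
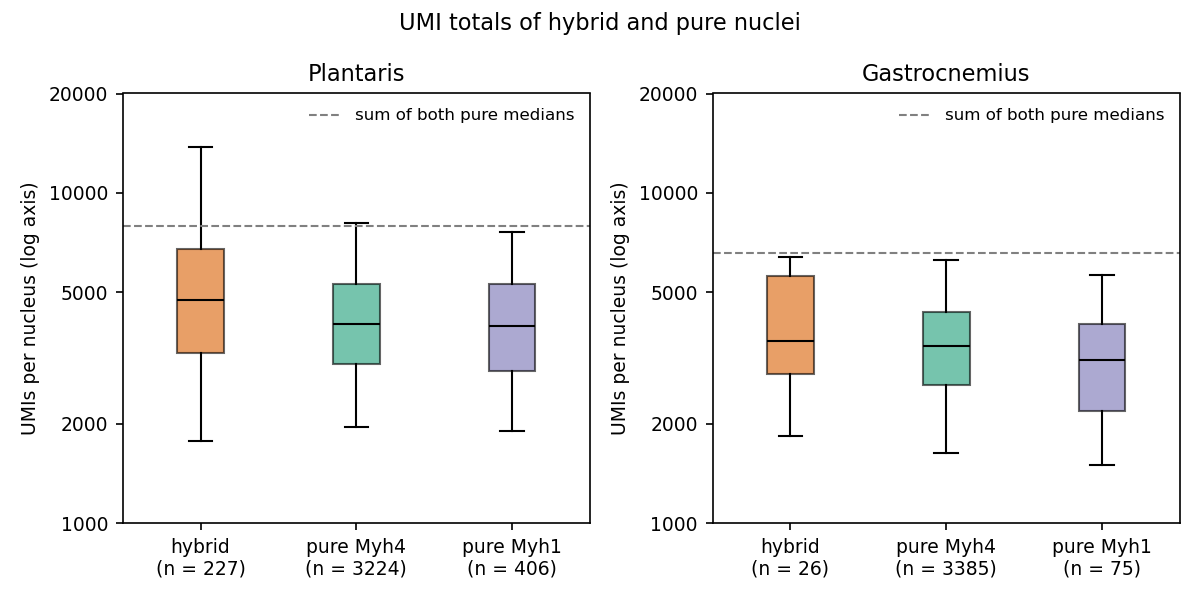
UMIs per nucleus on a log axis for hybrid, pure Myh4 and pure Myh1 nuclei of each library. Boxes show quartiles and the median, whiskers the 5th and 95th percentiles, and the dashed line the sum of both pure medians, 7946 UMIs in plantaris and 6555 in gastrocnemius. The hybrid medians of 4731 and 3556 lie under the line, which is not the total to be expected of a droplet with both kinds of nuclei.

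Depth and myosin balance went together in plantaris. Hybrids with a Myh1 share of 20 to 40% had a median of 5597 UMIs, those at 40 to 60% had 4919, and those at 60 to 80% had 3988, close to the pure classes. By myosin count, the 115 hybrids with 10 to 19 Myh UMIs had a median of 3522 UMIs, the 86 with 20 to 39 had 5395, and the 26 with 40 or more had 12459.5. The share of hybrids was higher where more Myh UMIs were asked for in plantaris, 7.44% at 20 or more Myh UMIs and 18.8% at 40 or more. In gastrocnemius the shares were 0.660% and 0%, with no hybrid at 40 or more.

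Markers of muscle nuclei were present throughout. The 6 markers, Ttn and Neb among them, summed to 73955 CPM in plantaris hybrids, 78807 in pure Myh4 and 72001 in pure Myh1 nuclei. In gastrocnemius they came to 89868 CPM in hybrids, 94014 in pure Myh4 and 82522 in pure Myh1 nuclei.

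The clusters that held the hybrids differed between the muscles. Of 227 plantaris hybrids, 161 lay in clusters with myonuclear markers, 21 in junction clusters, 30 in clusters with markers of cells other than muscle and 15 in clusters left unnamed. The non-muscle clusters thus held 13.2% of hybrids (9.10 to 18.3%), 6.48% of pure Myh4 and 4.43% of pure Myh1 nuclei, and the 30 hybrids there had a median of 7630 UMIs. Junction clusters, named for genes of nuclei under a nerve ending or a tendon, held 9.25% of hybrids (5.82 to 13.8%), 2.30% of pure Myh4 and 5.42% of pure Myh1 nuclei. In gastrocnemius 25 of 26 hybrids lay in myonuclear clusters and 1 in the macrophage cluster. When the nuclei of junction, non-muscle and unnamed clusters were left out, the plantaris medians were 4291 UMIs (3884 to 4732) in hybrids, 3900 in pure Myh4 and 3907 in pure Myh1 nuclei. The gastrocnemius medians were then 3412 in hybrids, 3426 in pure Myh4 and 3186 in pure Myh1 nuclei, and the excess of UMIs in hybrids had shrunk in both libraries.

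The cluster that held the most hybrids in each library was the Myh1-rich one. In plantaris 107 hybrids (47.1%) lay in the cluster that held 80.8% of pure Myh1 and 4.65% of pure Myh4 nuclei, and 46 (20.3%) in the cluster that held 50.9% of pure Myh4 and 5.42% of pure Myh1 nuclei. In gastrocnemius 16 hybrids (61.5%) lay in the same Myh1-rich cluster, with 82.7% of pure Myh1 and 1.36% of pure Myh4 nuclei. Clusters were formed from 2000 variable genes, and the Myh genes were not barred from these, so this placement is a description.

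RNA set free from broken fibres would be seen in nuclei that do not make myosin. Non-muscle nuclei numbered 2662 in plantaris, with a median of 1537 UMIs, and 1744 in gastrocnemius, with a median of 1240.5 UMIs. They held on average 2.73 Myh4 and 0.520 Myh1 UMIs in plantaris, and 2.23 Myh4 and 0.0545 Myh1 UMIs in gastrocnemius. Of these non-muscle nuclei, 294 (11.04%) in plantaris and 95 (5.45%) in gastrocnemius reached 10 Myh UMIs themselves. Among them were 30 hybrids, 209 pure Myh4 and 18 pure Myh1 nuclei in plantaris, and 1, 86 and 1 in gastrocnemius. These were not left out, so the means, the percentiles and the shares after subtraction rest partly on nuclei of the classes themselves. The median hybrid held 8 Myh4 and 10 Myh1 UMIs in plantaris, and 7 Myh4 and 7.5 Myh1 UMIs in gastrocnemius. The rule gives every hybrid 2 or more UMIs of each gene, and the 95th percentile of Myh1 in non-muscle nuclei was 2 in plantaris and 0 in gastrocnemius, so the rule sets where Myh1 stands against it. For Myh4, as a description, 181 plantaris hybrids (79.7%, 73.9 to 84.8%) and 19 gastrocnemius hybrids (73.1%, 52.2 to 88.4%) had no more Myh4 UMIs than the 95th percentile of 15 and 9.85 in the shallower non-muscle nuclei. When the mean background Myh UMIs were subtracted from each nucleus, the share of hybrids became 4.14% in plantaris and 0.455% in gastrocnemius.

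Genes other than Myh that separate the pure classes summed to levels between them in hybrids of both muscles, while gene by gene most lay between in plantaris and a minority did in gastrocnemius. To keep the choice of genes apart from the measurement, genes with a 4-fold or larger difference between pure classes, and 20 or more UMIs over both in each library, were picked in 1 library and read in the other. Gastrocnemius gave 341 genes higher in pure Myh1 nuclei (3.17% of 10763) and 235 lower (2.18%). In plantaris 365 of these 576 genes (63.4%) had a hybrid CPM between both pure values, where 39.2% of all genes did. On a scale where pure Myh4 nuclei are at 0 and pure Myh1 nuclei at 1, their median position was 0.451, close to the middle. The summed level of the genes higher in pure Myh1 nuclei was 38469 CPM in plantaris hybrids, 17656 CPM in pure Myh4 and 63769 CPM in pure Myh1 nuclei, a position of 0.451. For the genes higher in pure Myh4 nuclei the sums were 26817 CPM in hybrids, 38593 CPM in pure Myh4 and 15975 CPM in pure Myh1 nuclei, a position of 0.521.

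Plantaris gave 109 genes higher in pure Myh1 nuclei (1.01%) and 215 lower (2.0%), which were read in gastrocnemius. There 109 of the 324 genes (33.6%) lay between, where 20.5% of all genes did, and the median position was 0.682. Only 178 of the 324, and 70 of the 215 lower ones, differed between the pure classes in the same direction in gastrocnemius, so for the others a position has little meaning. These per-gene figures are coarse, since 153 of the 324 genes had no UMI in the 26 hybrids. The sums are firmer: the Myh1-side genes came to 22758 CPM in gastrocnemius hybrids, 3512 CPM in pure Myh4 and 35435 CPM in pure Myh1 nuclei, and the Myh4-side genes to 4161 CPM in hybrids, 10918 CPM in pure Myh4 and 1511 CPM in pure Myh1 nuclei. Their positions were 0.603 and 0.718, both nearer to pure Myh1 than to pure Myh4 nuclei. Levels between the pure classes do not show where the RNA of a barcode came from: from these sums a nucleus with both programmes and a droplet with both kinds of nuclei cannot be told apart.

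Nucleus by nucleus, each hybrid was given its share of Myh1-side UMIs among the UMIs of both gene groups. The median share was 58.2% in plantaris hybrids (5th to 95th percentile 35.3 to 82.9%), 27.3% in pure Myh4 nuclei (13.2 to 60%) and 80.7% in pure Myh1 nuclei (55.5 to 90.6%). Between the pure medians lay 204 of 227 hybrids (89.9%), while 4 were at or below the pure Myh4 median and 19 at or above the pure Myh1 median. The classes overlapped: 419 of 3224 pure Myh4 nuclei and 86 of 406 pure Myh1 nuclei had shares within the middle 50% of hybrids. In gastrocnemius the median share was 85.7% in hybrids, 15.9% in pure Myh4 and 96.3% in pure Myh1 nuclei, and 22 of 26 hybrids lay between the medians. Only 2 of the 26 were nearer the pure Myh4 median, against 85 of 227 in plantaris.

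**Figure D2:**
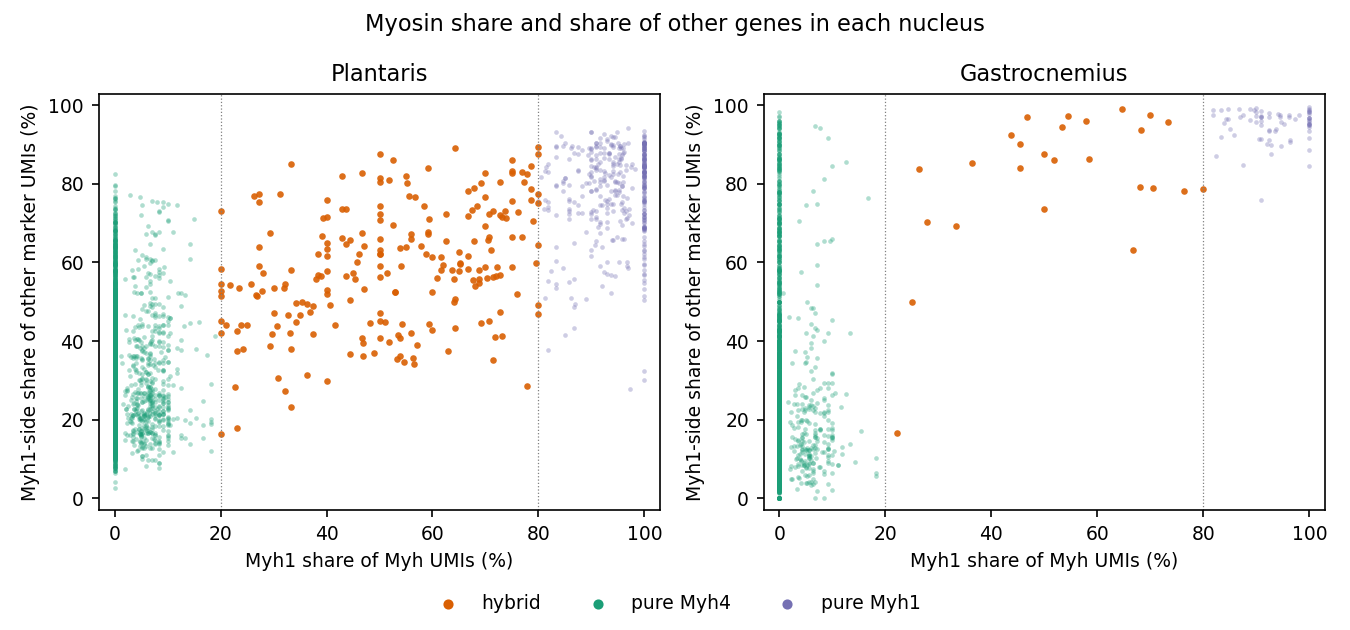
Share of Myh1-side UMIs among the UMIs of genes picked in the other library (vertical axis, %) against the Myh1 share of Myh UMIs (horizontal axis, %), 1 point per nucleus with 10 or more such UMIs; dotted lines mark Myh1 shares of 20% and 80%. On the vertical axis hybrid points spread between the pure classes in plantaris, with a median of 58.2%. In gastrocnemius most lie near the pure Myh1 nuclei, with a median of 85.7%. Their place on the horizontal axis follows from the rule.

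Other genes followed the myosin balance only loosely inside the class. In plantaris the median share was 50.7% in hybrids with 20 to 40% Myh1, 62.0% at 40 to 60% and 62.8% at 60 to 80%. In gastrocnemius it was 69.7% in the 6 hybrids of the lowest band, 90.2% in 11 and 79.1% in 9. Shallow and deep hybrids both lay in the middle: the 114 plantaris hybrids with UMI totals up to the class median had 61.7%, and the 113 above it had 56.3%. By cluster the medians were 62.2% in myonuclear, 47.4% in junction, 54.7% in non-muscle and 50.5% in unnamed clusters.

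The 18 genes shown are from those furthest apart between the pure classes in both muscles. The pure values that picked these genes also set the range in which hybrids are placed. That range is wide by choice, so lying within it is a description. The 9 higher in pure Myh1 nuclei were 4831440D22Rik, Gm20125, Gm20757, Dach2, Gm12724, A630001G21Rik, Ankrd2, Myoz2 and Prune2. Every one lay between the pure values in plantaris, and 7 did in gastrocnemius, where Gm20757 and Myoz2 had no UMI in hybrids. Of those 7, Gm20125 had 1 UMI in gastrocnemius hybrids, Dach2 had 2, and A630001G21Rik and Prune2 had 3 each, too few to place these genes. Ankrd2, a stretch-responsive ankyrin repeat protein (chr19:42036000-42045110), had 34.3 CPM in plantaris hybrids, 3.02 in pure Myh4 and 46.2 in pure Myh1 nuclei. In gastrocnemius it had 270.0 CPM in hybrids, 10.9 in pure Myh4 and 776 in pure Myh1 nuclei. Its log2 ratio of hybrids over pure Myh4 nuclei was 3.50 (2.88 to 4.13) in plantaris and 4.64 (3.99 to 5.23) in gastrocnemius. Ankrd2 in hybrids was thus near the Myh1 level in plantaris, and below it in gastrocnemius. Myoz2, a calsarcin of the Z-disc typical of slow fibres, had 17.5 CPM in plantaris hybrids, 2.60 in pure Myh4 and 35.2 in pure Myh1 nuclei, but after thinning each nucleus to 1000 UMIs its log2 ratio over pure Myh1 nuclei was 0.53, above that class. Dach2, a transcriptional cofactor known from denervated muscle, had 27.0 CPM in plantaris hybrids, 3.58 in pure Myh4 and 68.2 in pure Myh1 nuclei. The antisense transcript 4831440D22Rik had 56.8 CPM in plantaris hybrids, 6.32 in pure Myh4 and 170 in pure Myh1 nuclei, and in gastrocnemius 164 CPM in hybrids, 6.56 in pure Myh4 and 341 in pure Myh1 nuclei.

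The 9 lower in pure Myh1 nuclei were Gm19299, Slc2a3, Pld5, Pebp4, Amd1, Actr3b, Spns2, Actn3 and Gdap1, and the CPM of all 9 lay between the pure values in both muscles. In gastrocnemius this rests on few UMIs: Slc2a3 had 1 UMI in hybrids, Pld5 and Pebp4 had 3 and Gm19299 had 4, too few to place these genes. Actn3, the alpha-actinin of fast Z-discs (chr19:4861216-4877909), had 346 CPM in plantaris hybrids, 675 in pure Myh4 and 78.0 in pure Myh1 nuclei, log2 ratios of -0.96 (-1.10 to -0.83) and 2.15 (1.87 to 2.44). In gastrocnemius it had 202 CPM in hybrids, 833 in pure Myh4 and 73.9 in pure Myh1 nuclei, log2 ratios of -2.04 (-2.74 to -1.43) and 1.45 (0.47 to 2.45). Actn3 was thus near the middle in plantaris and nearer the Myh1 level in gastrocnemius. Amd1, an enzyme of polyamine synthesis, had 173 CPM in plantaris hybrids, 361 in pure Myh4 and 34.1 in pure Myh1 nuclei, and in gastrocnemius 231 CPM in hybrids, 714 in pure Myh4 and 73.9 in pure Myh1 nuclei. Gdap1, a protein of the outer mitochondrial membrane, had 129 CPM in plantaris hybrids, 257 in pure Myh4 and 26.0 in pure Myh1 nuclei.

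**Figure D3:**
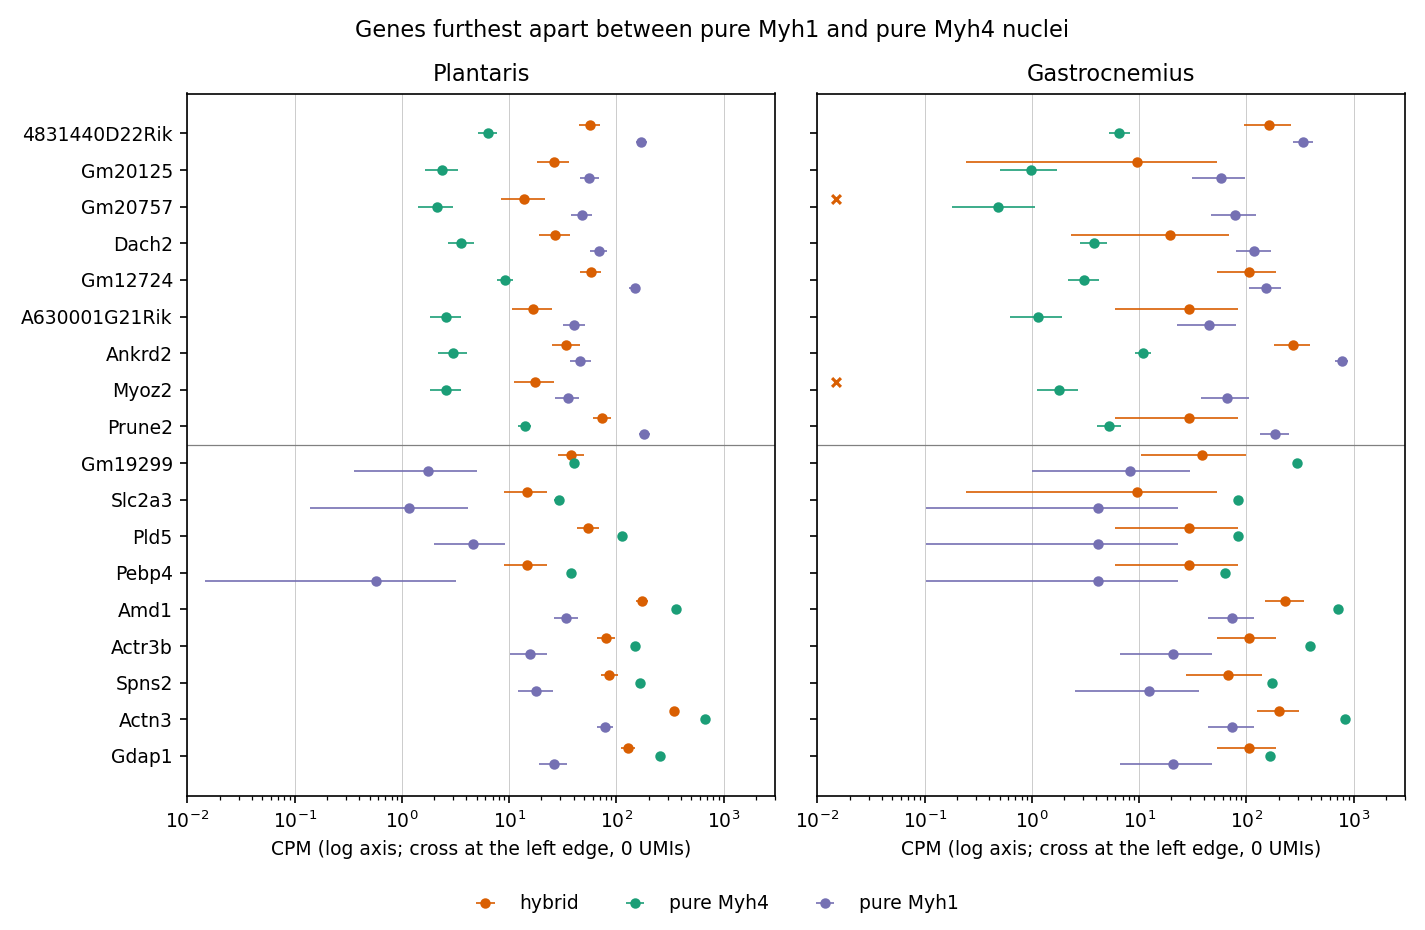
CPM on a log axis of 18 genes from those furthest apart between the pure classes, with exact Poisson 95% intervals, for hybrid, pure Myh4 and pure Myh1 nuclei; crosses stand for classes with 0 UMIs. The upper 9 genes are higher and the lower 9 lower in pure Myh1 nuclei, and hybrid points lie between the pure points for all 18 genes in plantaris and 16 in gastrocnemius. Several of the gastrocnemius hybrid points rest on 1 to 4 UMIs.

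Many contractile genes beyond myosin heavy chain had levels between the pure classes too. Of 15 fast contractile genes, 11 in plantaris and 10 in gastrocnemius lay between the pure values, where 39.2% and 20.5% of all genes did, and their sum was 13242 CPM in plantaris hybrids, 16531 in pure Myh4 and 11031 in pure Myh1 nuclei. Mylk4, a myosin light chain kinase, had 2685 CPM in plantaris hybrids, 4860 in pure Myh4 and 1400.0 in pure Myh1 nuclei. In gastrocnemius 4 of the 15 were 2-fold or more below pure Myh4 nuclei, where 5.79% of all genes were, and in plantaris 0 were, where 5.36% of all genes were. Mybpc2, the fast myosin-binding protein C, had 652 CPM in plantaris hybrids, 1036 in pure Myh4 and 314 in pure Myh1 nuclei. Its relative Mybpc1, the slow form and a member of the same list, ran the other way with 3003 CPM in plantaris hybrids, 1998 in pure Myh4 and 3905 in pure Myh1 nuclei. In gastrocnemius Mybpc1 had 3120.5 CPM in hybrids, 295 in pure Myh4 and 5567 in pure Myh1 nuclei. Of 12 slow contractile genes 6 had 20 or more UMIs in each library, and 4 of these lay between the pure values in each muscle. Actn2, the alpha-actinin of all fibre types, made up most of their sum, with 2555 CPM in plantaris hybrids, 662 in pure Myh4 and 4405 in pure Myh1 nuclei. In gastrocnemius Actn2 had 3747 CPM in hybrids, 284 in pure Myh4 and 5493 in pure Myh1 nuclei. The Z-disc therefore showed Actn3 and Actn2 in opposite order over the 3 classes, with hybrids in the middle for both.

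Calcium handling genes showed summed steps of about the size of the fast contractile genes in plantaris. The list's sum was 17192 CPM in plantaris hybrids, 21452 in pure Myh4 and 14511 in pure Myh1 nuclei. In each muscle 9 of 14 measured genes lay between, where 39.2% of all genes did in plantaris and 20.5% in gastrocnemius. Pvalb, the calcium buffer parvalbumin of the fastest fibres, showed the widest steps: 301 CPM in plantaris hybrids, 490 in pure Myh4 and 89.0 in pure Myh1 nuclei. In gastrocnemius Pvalb had 260.0 CPM in hybrids, 642 in pure Myh4 and 65.7 in pure Myh1 nuclei. Atp2a1, the calcium pump of fast fibres, had 2138 CPM in plantaris hybrids, 2910 in pure Myh4 and 1695 in pure Myh1 nuclei.

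Glycolysis and glycogen genes all lay between the pure values in plantaris, 22 of 22, against 39.2% of all genes, and 14 of 22 did in gastrocnemius, against 20.5%. In myonuclear clusters alone, an alternative chosen after seeing the data, the counts were 19 of 22 in plantaris, with Gapdh, Pgk1 and Pgam2 outside, and 11 of 22 in gastrocnemius. Their sum was 9957 CPM in plantaris hybrids, 12761 in pure Myh4 and 8645 in pure Myh1 nuclei. Hybrids were lower than pure Myh4 nuclei by a median log2 ratio of -0.31 and higher than pure Myh1 nuclei by 0.52, where the medians of all genes were 0.02 and 0.10. Pfkfb3, which makes the activator of phosphofructokinase, was furthest apart with 353 CPM in plantaris hybrids, 772 in pure Myh4 and 118 in pure Myh1 nuclei. It was the only member past 2-fold below pure Myh4 nuclei in plantaris, where 5.36% of all genes were. Against pure Myh1 nuclei, 2 of 22 in plantaris and 3 of 22 in gastrocnemius were 2-fold or more higher, where 13.3% and 13.9% of all genes were. Pygm, glycogen phosphorylase, had 907 CPM in plantaris hybrids, 1330.2 in pure Myh4 and 617 in pure Myh1 nuclei. Gys1, glycogen synthase, ran the other way with 379 CPM in plantaris hybrids, 238 in pure Myh4 and 711 in pure Myh1 nuclei. Gbe1, the branching enzyme, had 650.1 CPM in plantaris hybrids, 376 in pure Myh4 and 967 in pure Myh1 nuclei. Pygm was thus highest in pure Myh4 nuclei, and Gys1 and Gbe1 in pure Myh1 nuclei, with hybrids between for all 3.

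Fat uptake and oxidation genes were higher in hybrids than in pure Myh4 nuclei and lower than in pure Myh1 nuclei. In plantaris 17 of 19 and in gastrocnemius 14 of 19 lay between, where 39.2% and 20.5% of all genes did. The sum was 2473 CPM in plantaris hybrids, 1639 in pure Myh4 and 4047 in pure Myh1 nuclei, and 4517 CPM in gastrocnemius hybrids, 1673 in pure Myh4 and 6204 in pure Myh1 nuclei. The log2 ratio of this sum to pure Myh4 nuclei was 0.59 (0.54 to 0.65) in plantaris and 1.43 (1.30 to 1.56) in gastrocnemius. In plantaris 6 of 19 genes, and in gastrocnemius 15 of 19, were 2-fold or more above pure Myh4 nuclei, where 7.62% and 15.5% of all genes were. Cd36, a fatty acid transporter that capillaries and fat cells also make, had 283 CPM in plantaris hybrids, 64.3 in pure Myh4 and 808 in pure Myh1 nuclei. In gastrocnemius Cd36 had 1204 CPM in hybrids, 73.7 in pure Myh4 and 1769 in pure Myh1 nuclei. Against pure Myh1 nuclei, 3 of the 19 in plantaris and 0 in gastrocnemius were 2-fold or more lower, where 5.26% and 6.59% of all genes were. Lpl, lipoprotein lipase, had 227 CPM in plantaris hybrids, 86.4 in pure Myh4 and 529 in pure Myh1 nuclei. Fabp3, the fatty acid carrier of heart and oxidative muscle, had 39.4 CPM in plantaris hybrids, 9.98 in pure Myh4 and 79.2 in pure Myh1 nuclei.

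Citrate cycle and respiratory chain genes showed smaller steps in the same direction. Between the pure values lay 20 of 26 in plantaris and 16 of 26 in gastrocnemius, where 39.2% and 20.5% of all genes did. The plantaris sum was 2335 CPM in hybrids, 1840 in pure Myh4 and 3107 in pure Myh1 nuclei. Ogdh, a subunit of oxoglutarate dehydrogenase, had 480 CPM in plantaris hybrids, 347 in pure Myh4 and 695 in pure Myh1 nuclei. Mb, the oxygen store myoglobin, had 20.4 CPM in plantaris hybrids, 5.34 in pure Myh4 and 33.5 in pure Myh1 nuclei. Ldhb, the heart-type subunit of lactate dehydrogenase, had 11.7 CPM in plantaris hybrids, 1.48 in pure Myh4 and 30.1 in pure Myh1 nuclei.

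Among regulators of oxidative metabolism a few genes showed large steps. Of 14 genes 11 in plantaris and 10 in gastrocnemius lay between, where 39.2% and 20.5% of all genes did. In plantaris 5 of the 14 were 2-fold or more above pure Myh4 nuclei and 3 were 2-fold or more below pure Myh1 nuclei, where 7.62% and 5.26% of all genes were. Ppargc1a, the coactivator PGC-1alpha that drives mitochondrial genes, had 1667 CPM in plantaris hybrids, 421 in pure Myh4 and 3640 in pure Myh1 nuclei. In gastrocnemius Ppargc1a had 2408 CPM in hybrids, 446 in pure Myh4 and 3182 in pure Myh1 nuclei. Its hybrid level was under the middle in plantaris and over it in gastrocnemius. Ppara, a receptor for fatty acids, had 410 CPM in plantaris hybrids, 82.1 in pure Myh4 and 933 in pure Myh1 nuclei. Esrrg, an orphan receptor that acts with PGC-1alpha, had 1830 CPM in plantaris hybrids, 861 in pure Myh4 and 3263 in pure Myh1 nuclei. In gastrocnemius Esrrg had 3303 CPM in hybrids, 474 in pure Myh4 and 5042 in pure Myh1 nuclei. In plantaris Nrf1 and Ppard were near level: Nrf1 had 117 CPM in plantaris hybrids, 123 in pure Myh4 and 107 in pure Myh1 nuclei.

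Of 10 fast-fibre regulators 9 were measured, and 5 in plantaris and 8 in gastrocnemius lay between, where 39.2% and 20.5% of all genes did. The plantaris share is not far from that of all genes. Maf, a large Maf factor known in mice to act on Myh4, had 495 CPM in plantaris hybrids, 715 in pure Myh4 and 396 in pure Myh1 nuclei. In gastrocnemius Maf had 279 CPM in hybrids, 439 in pure Myh4 and 135 in pure Myh1 nuclei. Eya4, a transcriptional cofactor of fast muscle, had 1037 CPM in plantaris hybrids, 1537 in pure Myh4 and 702 in pure Myh1 nuclei. Of 11 stress and immediate early genes only 5 were measured, and 3 and 2 of them lay between in plantaris and gastrocnemius. Nr4a3, a nuclear receptor induced by exercise, had 180.0 CPM in plantaris hybrids, 52.6 in pure Myh4 and 393 in pure Myh1 nuclei.

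**Figure D4:**
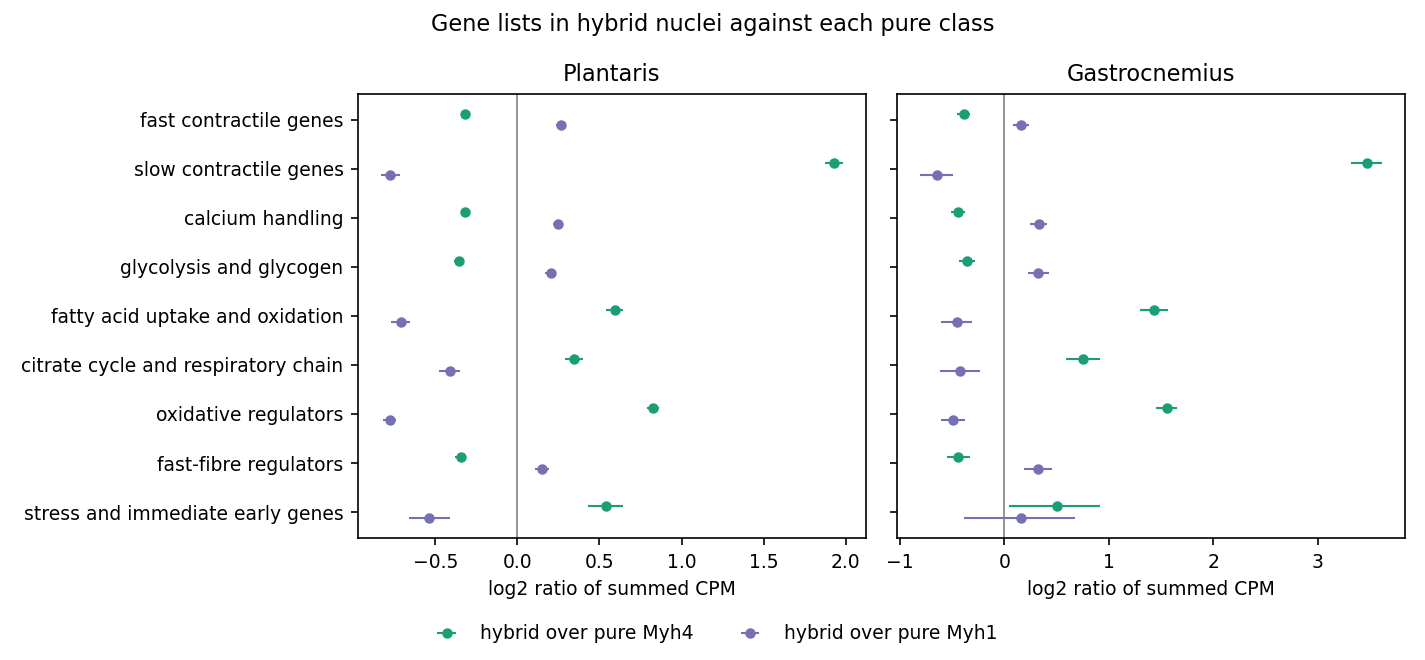
Log2 ratio of each gene list's summed CPM in hybrids over pure Myh4 and over pure Myh1 nuclei, with exact 95% intervals. In plantaris the 9 lists lie on opposite sides of 0 against the 2 pure classes, for example 0.59 and -0.71 for fat uptake and oxidation; in gastrocnemius the stress list does not, with 0.50 and 0.15.

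Few genes stood outside the range of the pure classes beyond counting error in both libraries. Hybrid CPM was above both pure classes in both libraries for 2452 of 10803 genes and below both for 505, but all 4 intervals were clear of 0 for only 13 and 1 of them. The 5 named by the rule among those above were F13a1, Lyn, Ptprc, Pid1 and Aff3, of which F13a1, Lyn and Ptprc are genes of macrophages and other blood cells. Pid1 had 246 CPM in plantaris hybrids, 110 in pure Myh4 and 69.3 in pure Myh1 nuclei, and in gastrocnemius 299 CPM in hybrids, 60.4 in pure Myh4 and 78.0 in pure Myh1 nuclei. F13a1 had 46.6 CPM in plantaris hybrids, 16.2 in pure Myh4 and 8.67 in pure Myh1 nuclei. In myonuclear clusters alone Pid1 had 6.23 CPM in plantaris hybrids, 15.4 in pure Myh4 and 12.4 in pure Myh1 nuclei, and F13a1 kept 1 UMI in the hybrids of each library. In gastrocnemius Pid1 kept 4 of its 31 hybrid UMIs there, or 39.9 CPM, and both ratio intervals included 0. Of the others, Lyn and Aff3 kept 1 UMI each in gastrocnemius hybrids and Ptprc 0. The remaining gastrocnemius UMIs of these genes lay in the 1 hybrid of the macrophage cluster. Leaving out other clusters lowers their defining genes by construction, so this says in which nuclei the UMIs lay. The 1 gene below both pure classes was Malat1, an abundant nuclear non-coding RNA, with 75471 CPM in plantaris hybrids, 82888 in pure Myh4 and 83435 in pure Myh1 nuclei. In gastrocnemius Malat1 had 57180.0 CPM in hybrids, 65783 in pure Myh4 and 71055 in pure Myh1 nuclei.

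Markers of some other cell types were higher in plantaris hybrids than in both pure classes, and others were not. Vascular endothelial markers summed to 10.2 CPM in plantaris hybrids, 12.4 in pure Myh4 and 11.6 in pure Myh1 nuclei. Pericyte markers came to 386 CPM in plantaris hybrids, 426 in pure Myh4 and 330 in pure Myh1 nuclei. All 6 mesenchymal markers were seen, with a sum of 306 CPM (278 to 337) in plantaris hybrids, 178 in pure Myh4 and 140.4 in pure Myh1 nuclei, against 2904 CPM in the mesenchymal clusters themselves. All 5 macrophage markers summed to 81.6 CPM (67.2 to 98.2) in plantaris hybrids, 34.6 in pure Myh4 and 17.9 in pure Myh1 nuclei. The 3 smooth muscle markers summed to 83.1 CPM in plantaris hybrids, 24.0 in pure Myh4 and 42.2 in pure Myh1 nuclei. The 5 markers of the myotendinous junction summed to 259 CPM (232 to 287) in plantaris hybrids, 75.9 in pure Myh4 and 212 in pure Myh1 nuclei. In gastrocnemius hybrids the mesenchymal sum was 28.9 CPM from 3 UMIs, with Pdgfra, Col1a2, Gsn and Lum at 0, against 89.8 in pure Myh4 and 90.3 in pure Myh1 nuclei. The 5 endothelial, 4 tenocyte and 3 smooth muscle markers were all at 0 there. Macrophage markers were higher in gastrocnemius hybrids, with 96.3 CPM (46.2 to 177) from 10 UMIs, against 23.2 in pure Myh4 and 28.7 in pure Myh1 nuclei. T and B cell markers came to 57.8 CPM from 6 UMIs in gastrocnemius hybrids, 1.54 in pure Myh4 and 4.11 in pure Myh1 nuclei. All 6 UMIs in hybrids were of Ptprc, which macrophages also make, and Cd3e, Skap1 and Cd79a were at 0. In myonuclear clusters alone these hybrids kept 2 macrophage UMIs and 0 T and B cell UMIs. In the myonuclear clusters of plantaris the hybrids' mesenchymal sum was 43.6 CPM and their macrophage sum 7.47 CPM, while the median position of the separating genes was 0.516. The part of these other cells in the full class's values was not tested.

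Between the muscles, a part of the genes differed in hybrids. Of 6522 genes with 20 or more UMIs over the hybrids of both libraries, 970 were 2-fold or more higher in plantaris hybrids (14.9%) and 384 lower (5.89%), with 693 genes at 0 UMIs among the 26 gastrocnemius hybrids. By interval the split was more even, with 451 genes clear above 0 and 360 clear below it. After thinning to 1000 UMIs a nucleus, 488 genes in place of 1354 were 2-fold apart. The 5 higher genes by the rule were Mss51, Slit3, Lama2, Tshz2 and Ebf1, and the 5 lower ones Sorcs1, Dock2, Fn1, Slc19a2 and Rbm20. Rbm20, a splicing factor for titin, had 329 CPM in plantaris hybrids and 1926 in gastrocnemius hybrids, a log2 ratio of -2.55 (-2.79 to -2.30). The same ratio was -3.02 in pure Myh4 and -2.30 in pure Myh1 nuclei, so Rbm20 differed between the libraries in all 3 classes. Mss51, a muscle mitochondrial protein, had 182 CPM from 250 UMIs in plantaris hybrids and no UMI in gastrocnemius hybrids, and its log2 ratio was 2.95 in pure Myh4 and 2.05 in pure Myh1 nuclei. Slit3, Lama2, Tshz2 and Ebf1 are known from the fibroblast-like cells of muscle. Lama2, the laminin alpha 2 chain of the fibre's basement membrane, had 912 CPM in plantaris hybrids and 106 in gastrocnemius hybrids, a log2 ratio of 3.11. In myonuclear clusters alone Lama2 had 97.1 CPM in plantaris hybrids and 99.9 in gastrocnemius hybrids. Dock2 and Fn1 each had 13 UMIs in gastrocnemius hybrids and none in the 25 of them in myonuclear clusters, so all of them lay in the 1 nucleus of the macrophage cluster.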

How the data were processed

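The deposited table holds UMI counts, as whole numbers, for 32285 genes in 16530 nuclei, and a deposited sample table names the library of each barcode, which leaves 0 columns of other samples. Cell Ranger 6.0.1 and mm10 are named in the submitters' processing notes; how intronic reads were counted and nuclei called is not given in the sources used here. The lowest total was 500 UMIs in both libraries, and 17 barcodes occur in both. Doublets were not removed and no caller was run.

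For each class and library, counts were added up over nuclei and scaled to 1000000 (CPM). Intervals at 95% are exact Clopper-Pearson for shares, exact Poisson for CPM, exact conditional binomial for ratios and order-statistic for medians. Where a ratio needed it, a class sum of 0 was replaced by 3 counts, and no such ratio is printed as a fold. Genes in a comparison of pure classes had 20 or more UMIs over both classes in each library, so there a gene seen mainly in hybrids had to pass on its pure values. The 20 UMIs were counted over all 3 classes, hybrids among them, for gene lists and for shares of all genes 2-fold from a pure class. The same held for genes above or below both pure classes, so there a gene could pass through its hybrid UMIs. Positions over 1 or under 0 were kept. Clusters came from 2000 variable genes with 30 components, 15 neighbours and Leiden resolution 1 (scanpy 1.11.5, leidenalg 0.10.2), and were named from marker lists. Before that, 6 nuclei with under 200 genes or 5% or more mitochondrial UMIs were left out. Positions were tested on simulated data in which only genes well counted in pure Myh4 nuclei were changed. That test therefore does not cover genes with few UMIs. The other tools were Python 3.11.15, numpy 2.4.6, scipy 1.17.1, pandas 2.3.3 and matplotlib 3.10.9.

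Genes were named by rule: the 10 furthest apart between the pure classes in each direction in both libraries, up to 5 above or below both pure classes with every interval clear of 0, the 5 in each direction between the muscles by the interval bound nearest 0, and members of 9 gene lists. The class, the gene lists and the rules were chosen with earlier results of these data known. From those lists the genes given with values were picked after their values were seen. Some genes that the rule names are not reported here.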

Additional observations from a re-analysis of the deposited data

Results flagged for a closer look

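For 5 named genes the hybrids lay on opposite sides of a pure class in the 2 muscles, with the interval of both log2 ratios clear of 0. The difference between the muscles was not tested. Lama2 had log2 ratios of hybrids over pure Myh4 nuclei of 1.42 in plantaris and -1.73 in gastrocnemius, and over pure Myh1 nuclei of 0.37 in plantaris and -1.40 in gastrocnemius. Tshz2 had 0.83 in plantaris and -2.66 in gastrocnemius over pure Myh4 nuclei, and 1.31 and -3.23 over pure Myh1 nuclei, from 350 UMIs in plantaris hybrids and 1 UMI in gastrocnemius hybrids. Ebf1 had 0.91 in plantaris and -1.47 in gastrocnemius over pure Myh4 nuclei, and 0.84 and -1.91 over pure Myh1 nuclei. In myonuclear clusters alone the intervals of all these ratios of Lama2, Tshz2 and Ebf1 included 0, which leaving out fibroblast-like clusters favours by construction. Myl1, the essential light chain of fast myosin, had 0.49 in plantaris and -1.01 in gastrocnemius over pure Myh4 nuclei, and 0.62 and -1.0 in myonuclear clusters alone. Its levels were 874 CPM in plantaris hybrids and 621 in pure Myh4 nuclei, and in gastrocnemius 1262 CPM in hybrids and 2547 in pure Myh4 nuclei. Nr4a1 had -0.21 in plantaris and 0.65 in gastrocnemius over pure Myh1 nuclei, and -0.027 and 0.58 in myonuclear clusters alone, where both intervals included 0.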

How the results depend on the processing

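No paired analysis was possible because each muscle gave 1 library and the labels give no replicate numbers. Of 64 alternatives to the main results, 40 left the value within its own interval or within 1.5 times for counts. The plantaris share of hybrids, 5.12%, was 7.44% at 20 or more Myh UMIs, 18.8% at 40 or more, 3.40% with 30% or more of each gene, 4.14% after subtracting background and 4.24% without the top 10% of UMI totals. The gastrocnemius share, 0.713%, was 0.0% at 40 or more Myh UMIs, 0.466% with 30% or more of each gene and 0.455% after subtracting background. The plantaris ratio of UMI totals to pure Myh1 nuclei was 1.66 at 40 or more Myh UMIs. The plantaris median position, 0.451, was 0.406 at 20 or more Myh UMIs, 0.242 at 40 or more, 0.405 with 30% or more of each gene, 0.516 in myonuclear clusters alone, 0.383 for genes 2-fold apart, 0.50 with each nucleus weighted alike, 0.526 after thinning to 1000 UMIs and 0.546 without the top 10% of UMI totals. The gastrocnemius median position, 0.682, was 0.820 with 30% or more of each gene, 0.458 for genes picked in the same library, 0.796 after thinning and 0.846 without the top 10%. The 1354 genes 2-fold apart between the muscles' hybrids became 488 after thinning, 776 at 50 or more UMIs and 2489 with no least number, since these settings change how many genes and UMIs enter. Picking genes by their interval, chosen after seeing the data, gave 0.465 in plantaris and 0.677 in gastrocnemius.

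For single genes, 4840 alternative values stayed close, 808 moved and 19 turned their sign. With 30% or more of each gene, F13a1 became -0.53 and Aff3 -1.38 over pure Myh1, and Pid1 -0.11 over pure Myh4 and -1.73 over pure Myh1, all in gastrocnemius, and Sorcs1 became -0.35 over pure Myh1 in plantaris. In myonuclear clusters alone the plantaris ratios over pure Myh4 were -0.70 for F13a1, -1.30 for Pid1 and -0.36 for Aff3, and over pure Myh1 -1.15 for F13a1, -0.996 for Pid1 and -0.26 for Slit3. There Ebf1 became 0.51 over pure Myh4 in gastrocnemius, and the ratio of plantaris over gastrocnemius hybrids became -0.040 for Lama2 and -0.74 for Ebf1. After thinning, Myoz2 became 0.53 over pure Myh1 and Ptprc -0.33 over pure Myh4 in plantaris, and Hrc 0.97 between the muscles. Without the top 10% of UMI totals Sorcs1 became -0.81 over pure Myh4 and -0.50 over pure Myh1 in plantaris. The cause was not tested. At 40 or more Myh UMIs gastrocnemius had no hybrid and gave no ratio or position. The 26 gastrocnemius hybrids hold 103830 UMIs in all, so there a gene with 1 UMI stands at 9.63 CPM and single low genes cannot be placed.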
